A study of Mus musculus with 50 samples.

Results

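The transcripts described here are 9 genes of transforming growth factor beta (TGF-beta) and activin signalling in amputated mouse digits. They are the ligand genes Tgfb1, Tgfb2, Tgfb3 and Inhba, the receptor genes Tgfbr1 and Tgfbr2, the activin-binding inhibitor gene Fst, the activator gene Thbs1 and the target gene Pmepa1. The 9 were taken by name from the 21954 genes of the expression tables. They had been selected on earlier results from the same 41 digits, and Pmepa1 was chosen by its relation with the labelled amputation percent. Levels and fold changes of the 9 genes in digits are therefore given as a description, and no test of their change over time or of Pmepa1 against the amputation percent is used as support.

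The digits came from male C57Bl/6 mice of 9 to 10 weeks, in which part of the terminal phalanx of hindlimb digit 3 was removed. The labels name no transgene or drug for any digit. The tissue around the wound bed, a mixture of cell types, was collected from 29 non-regenerative digits at 0, 3, 6, 12 and 24 hours and at 3, 7, 14 and 21 days. Each time point held 3 digits, except 7 days with 5. The 12 intermediate digits fell into 4 times with 3 digits each (0 and 24 hours, 14 and 21 days). The labels gave an amputation of 60 to 80% in the non-regenerative and 41 to 55% in the intermediate digits. The study defined the non-regenerative level as removal of over 67%, yet 11 of the 29 non-regenerative digits were labelled below 67% and 1 at 67%. The 9 macrophage samples were grown for 7 days from bone marrow of female C57BL/6 mice of 6 to 8 weeks. M1 had 20 ng/ml IFN-gamma and 100 ng/ml LPS, M2 had 20 ng/ml IL-4, each for 24 hours, and M0 was unstimulated, with 3 samples in each state. The titles call M0 baseline, and the labels do not say whether it was kept for the same 24 hours. Stimulus and time in culture may therefore not be told apart in M1 or M2 against M0. The labels do not say whether the 3 samples of a state came from separate mice or cultures, so p-values measure only the spread between these samples, which may be technical.

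TGF-beta ligands are secreted in a latent complex and signal, once released, through a type II receptor that recruits and phosphorylates a type I receptor. Receptor-activated SMAD2 and SMAD3 then join SMAD4 in the nucleus. Activin A, a dimer of the product of Inhba, uses its own receptors but the same SMADs, and follistatin, the product of Fst, binds activin and keeps it from its receptors. In skin wounds, this pathway is known for its roles in keratinocyte migration, matrix deposition and scarring.

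Between 1468749 and 13011782 expected counts were assigned to genes in each digit (median 6835347), and between 15683424 and 27904773 in each macrophage sample. The digit with the fewest counts was non-regenerative replicate 3 at 3 hours. Levels are given as normalized TPM, that is, transcript abundances corrected for length and library size that the authors scaled between libraries. The digit and macrophage tables were normalized separately, so levels are not compared between them. Non-regenerative replicate 2 at 14 days (labelled 77%) and replicate 2 at 7 days (labelled 65%) stood apart from the other digits. Spearman's correlation over genes with the other 5 digits at 14 days was 0.631 to 0.681 for the first, and 0.673 to 0.744 with the other 4 digits at 7 days for the second. The normalized TPM of the first also summed to 3362791, against at most 1434851 in the other digits. Both are called dissimilar digits, and results resting on them are given with and without them. The titles of 5 pairs of digits share the animal mark, date and side. Of these, 1 pair stands across the level groups at 14 days (non-regenerative replicate 3, intermediate replicate 1) and 1 across the comparison of 12 with 0 hours (non-regenerative replicate 3 at 12 hours, replicate 1 at 0 hours). Whether such digits came from 1 animal is not given in the sources used here. Dates in the labels fell into an earlier period with 24 digits and a later one with 17. All non-regenerative digits at 3 and 12 hours were of the earlier period, as were the intermediate digits at 21 days, and all non-regenerative digits at 21 days were of the later period. Markers of keratinocytes were detected above 1 normalized TPM in every digit (5 of 5 markers). Those of T lymphocytes summed to at most 10.96 and those of skeletal muscle to at most 175.5 (the dissimilar digit at 7 days). The 5 macrophage markers in the tables summed to at least 3048 in every macrophage sample. In such bulk tissue, fewer cells of a type and less RNA per cell cannot be told apart.

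The 3 TGF-beta ligand genes encode paralogous proteins, and their coding ends are shown because the results below turn on telling the 3 transcripts apart. In GRCm38, Tgfb1 lies on chromosome 7 (25687002 to 25705077, plus strand), Tgfb2 on chromosome 1 (186622792 to 186705989, minus strand) and Tgfb3 on chromosome 12 (86056745 to 86079041, minus strand). The last 90 coding bases before the stop codon lie within 1 exon of each gene, at chr7:25704850-25704939, chr1:186625451-186625540 and chr12:86057783-86057872. They are read 5′ to 3′ on the coding strand from GENCODE M21 transcripts, with bases that are identical in all 3 in capitals.
Tgfb1: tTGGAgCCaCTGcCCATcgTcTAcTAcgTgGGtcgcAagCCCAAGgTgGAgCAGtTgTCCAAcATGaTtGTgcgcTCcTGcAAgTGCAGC
Tgfb2: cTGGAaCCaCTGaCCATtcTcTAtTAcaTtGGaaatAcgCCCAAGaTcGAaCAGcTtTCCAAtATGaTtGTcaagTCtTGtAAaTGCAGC
Tgfb3: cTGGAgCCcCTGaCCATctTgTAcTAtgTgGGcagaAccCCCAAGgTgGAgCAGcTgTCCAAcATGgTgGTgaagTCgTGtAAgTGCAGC
Of the 90 bases, 58 were identical in all 3. Between pairs, 64 bases were shared by Tgfb1 and Tgfb2, 67 by Tgfb2 and Tgfb3, and 71 by Tgfb1 and Tgfb3. The longest run shared by any pair of full transcripts was 15 bases. No window of 65 bases, the read length, matched another of the 3 transcripts within the 2 mismatches that the mapping allowed, and the closest window had 11. The 3′ end of Tgfb3 overlaps Ttll5 on the opposite strand. Inhba overlaps B230303A05Rik and Gm48444, and Tgfb2, Fst and Thbs1 also overlap opposite-strand genes. Whether the counting used strand is not given in the sources used here.

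Tgfb3, whose product is known from palate development and skin wounds, was low from 6 to 24 hours and high from 7 days on. In non-regenerative digits at 0 hours, its level was 10.8, 12.9 and 15.8 normalized TPM. At 3 hours it was 10.74, 9.04 and 16.14, overlapping with 0 hours. It was 6.74, 4.12 and 5.80 at 6 hours, 2.51, 7.22 and 4.17 at 12 hours and 6.68, 6.12 and 5.03 at 24 hours. Every digit from 6 to 24 hours lay below every digit at 0 hours. Groups without overlap were common. On normalized counts, 33.5% of all genes did not overlap with 0 hours at 6 hours, 42.3% at 12 hours and 39% at 24 hours. At 7 days, the 5 digits ran from 29.3 to 75.1, with a median of 46.7, and at 14 days the level was 106.4, 132.5 and 69.0. At 21 days, it was 57.3, 44.9 and 68.1, and all digits from 7 to 21 days lay above all digits at 0 hours. Against 0 hours, the log2 fold change was -1.44 (SE 0.37) at 12 hours, 2.69 (SE 0.48) at 14 days and 2.10 (SE 0.23) at 21 days. Without the dissimilar digit, the mean at 14 days was 87.7 in place of 102.6 normalized TPM. With every library rescaled to the same sum of TPM, that digit had 39.39, the lowest at 14 days but above the 15.75 of the highest digit at 0 hours.

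In intermediate digits, the Tgfb3 mean was again lowest at 24 hours and highest at 14 days. It was 16.1, 14.4 and 23.3 normalized TPM at 0 hours and 9.17, 11.2 and 10.4 at 24 hours. The 14-day digits had 46.0, 99.6 and 99.7, and the 21-day digits 82.05, 33.6 and 51.98. The 24-hour digits lay below, and the digits of both late time points above, all 3 digits at 0 hours. Of all genes in intermediate digits, 23.3% did not overlap with 0 hours at 24 hours, 19.9% at 14 days and 22.5% at 21 days. The log2 fold change was 2.17 (SE 0.32) at 14 days and 1.63 (SE 0.31) at 21 days. Markers of fibroblasts moved with Tgfb3 in part. The summed level of the 5 fibroblast markers was 1296 to 2316 normalized TPM in non-regenerative digits at 0 hours and 536.5 to 1270 at 24 hours. At 6 and 12 hours it was 523.4 to 2118 and 767.7 to 1326, overlapping with 0 hours, where Tgfb3 did not overlap. At 14 days it was 19590 and 12320, and 24180 in the dissimilar digit, not rescaled. All 5 markers were above 1 in every digit. Osteoblast markers (5 genes) summed to 51.55 to 136.1 in intermediate digits at 0 hours and 643.4 to 1668 at 14 days. In non-regenerative digits, they summed to 51.47 to 147.6 at 0 hours and 48.75 to 512.0 at 21 days, with overlap. The 7-day digits, from 8.649 to 441.1, also overlapped with 0 hours. At 14 days the sum was 636.2 and 233.5, and 132.2 in the dissimilar digit. The part of either cell type in the Tgfb3 levels was not tested.

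Tgfb2 had a similar time course over a narrower range. In non-regenerative digits it was 16.8, 9.50 and 15.9 normalized TPM at 0 hours and 4.31, 7.58 and 5.65 at 12 hours. At 24 hours it was 7.21, 7.90 and 6.35, again below all digits at 0 hours. The log2 fold change was -1.14 (SE 0.26) at 12 hours and -1.08 (SE 0.24) at 24 hours. At 21 days the level was 24.5, 19.3 and 20.1, above all digits at 0 hours (13.2% of all genes did not overlap there). In intermediate digits, Tgfb2 was 14.1, 14.3 and 13.4 at 0 hours, 4.09, 8.71 and 11.01 at 24 hours and 29.9, 25.3 and 30.4 at 21 days (log2 fold change 1.04, SE 0.19). The dissimilar digit at 7 days had 1.55, the lowest Tgfb2 level of the 41 digits, where the other 4 digits at 7 days had 12.9 to 16.85.

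Tgfb1, which platelets and leukocytes are known to carry, spread widely within groups. In non-regenerative digits it was 52.0, 8.85 and 13.45 normalized TPM at 0 hours. It was 29.3, 27.1 and 41.3 at 12 hours and 24.4, 20.5 and 38.7 at 24 hours. On this scale, the first digit at 0 hours lay above all digits of both later times. On normalized counts, all digits at 12 hours lay above all digits at 0 hours (log2 fold change 0.91, SE 0.34). The digits at 24 hours overlapped with those at 0 hours on that scale (0.79, SE 0.41), and neither change was called. At 14 days the Tgfb1 level was 38.0, 229.4 and 29.04 normalized TPM. The value of 229.4 belongs to the dissimilar digit, and without it the mean at 14 days was 33.5 in place of 98.8. Rescaled, it had 68.22 against 45.43 and 30.90. The platelet marker sum was highest at 0 hours, at 115.9 to 705.4 in non-regenerative digits, against 42.41 to 71.45 over both groups at 24 hours. In non-regenerative digits at 14 days this sum was 42.92 and 61.72, and 582.4 in the dissimilar digit, not rescaled. Its part in the Tgfb1 levels was not tested. In intermediate digits, Tgfb1 was 10.3, 17.1 and 22.8 at 0 hours and 24.5, 35.4 and 27.7 at 14 days (log2 fold change 1.15, SE 0.22). In 8 of the 9 groups that held digits of both date periods, all digits of the earlier period had more Tgfb1 than all digits of the later one, and in the ninth they overlapped. The part of the date period in these levels was not tested beyond the fit given below.

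**Figure D1:**
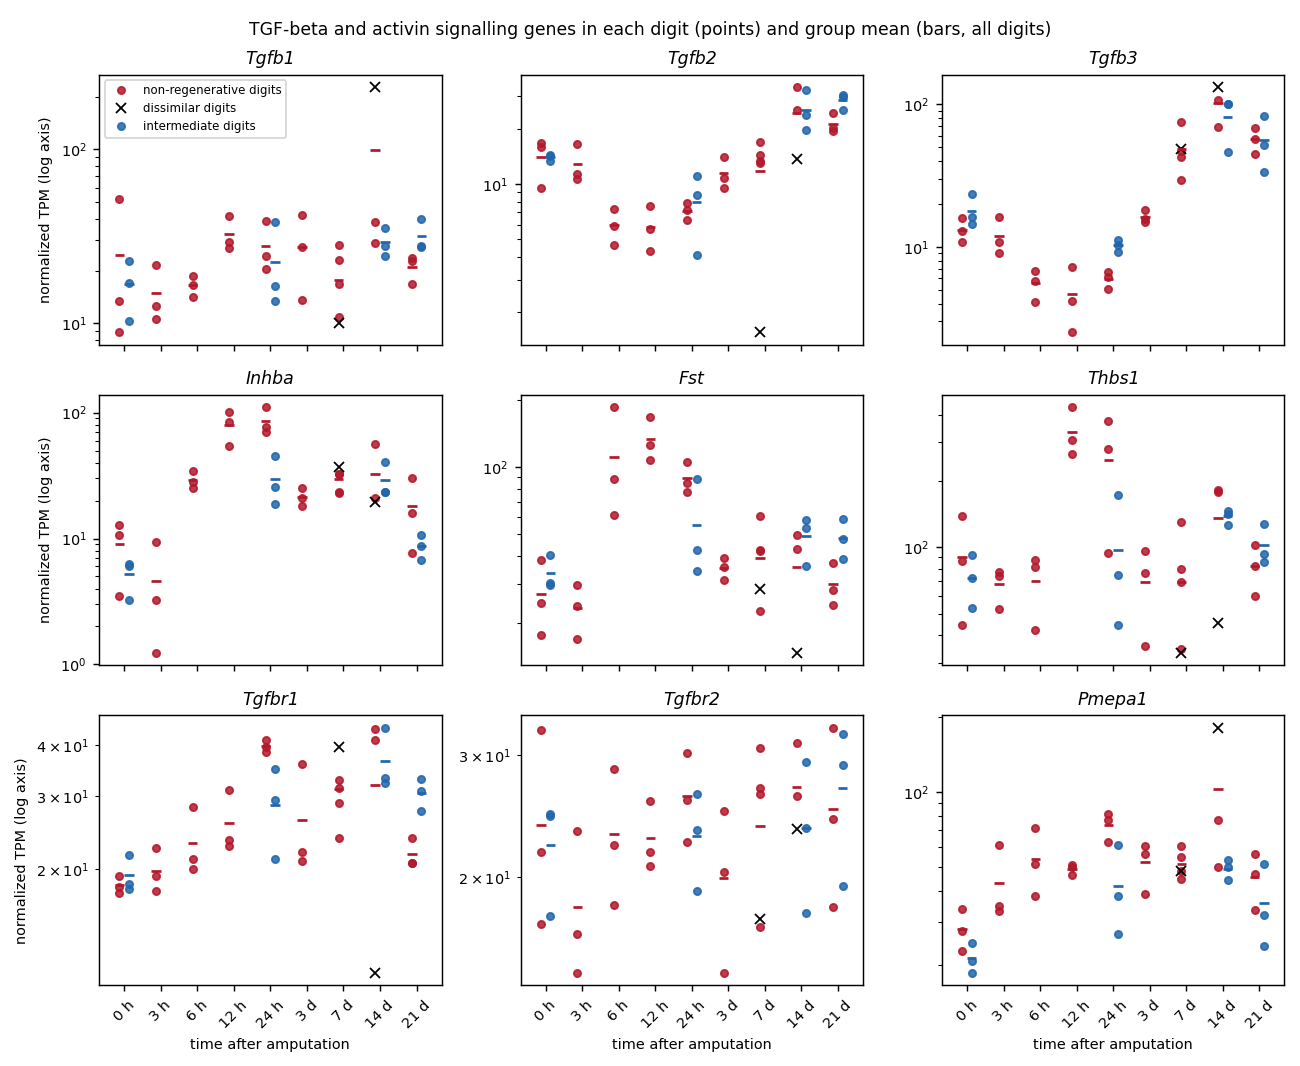
Normalized TPM (log axis) of each of the 9 genes against time after amputation, with 1 point per digit, red for non-regenerative and blue for intermediate digits, crosses for the 2 dissimilar digits and bars for group means over all digits. Tgfb2 and Tgfb3 are lowest between 6 and 24 hours, where Inhba and Fst are high, and Tgfb3 is highest at 14 days.

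As a share of the summed normalized TPM of the 3 ligand genes, Tgfb1 was 28.3, 29.8 and 65.4% over the non-regenerative digits at 0 hours. It was 64.7 to 81.1% at 12 hours and 59.4 to 77.3% at 24 hours, and it made up the largest share in every digit of these times. At 21 days, the Tgfb1 share was 20.5 to 22.4% and that of Tgfb3 was 54.4 to 61.3%. In intermediate digits, the Tgfb3 share was 31.4 to 39.7% at 0 hours, 17.9 to 33.5% at 24 hours and 51.0 to 65.9% at 14 days, with no overlap between 24 hours and 14 days. The sum of the 3 genes was 24.5 to 32.8 normalized TPM at 6 hours and 81.1 to 111.1 at 21 days in non-regenerative digits. In the dissimilar digit at 14 days Tgfb1 took 61.1%, against 21.3 and 23.5% in the other 2 digits.

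**Figure D2:**
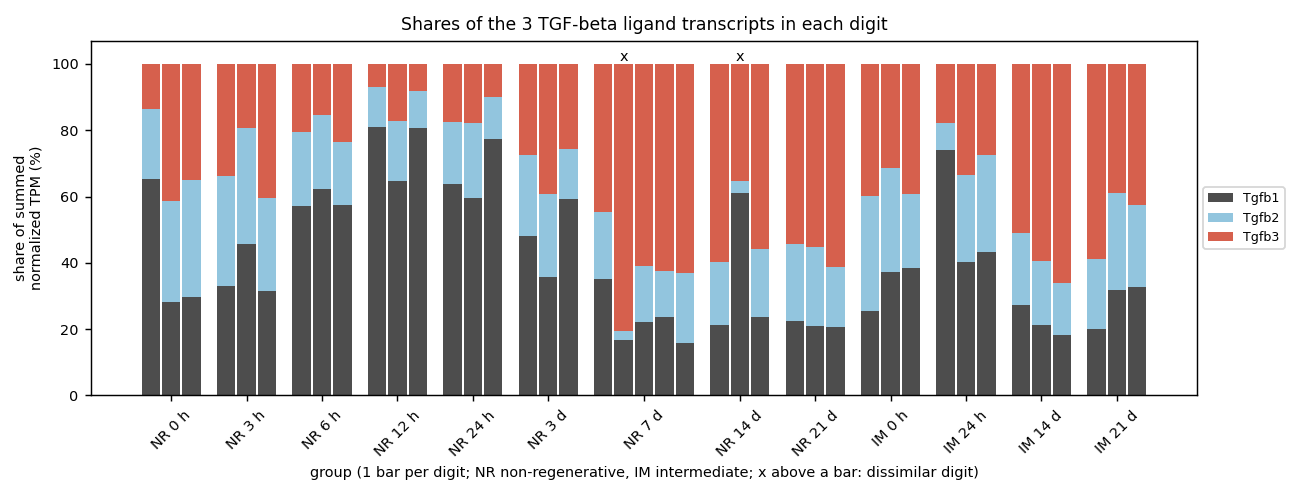
Share (%) of the summed normalized TPM of Tgfb1, Tgfb2 and Tgfb3 in each digit, 1 bar per digit, grouped by time point in non-regenerative (NR) and intermediate (IM) digits, with a cross above each dissimilar digit. Tgfb1 holds 59.4 to 81.1% at 12 and 24 hours in non-regenerative digits and Tgfb3 over 50% in all of them at 21 days.

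Inhba, which encodes the activin A subunit, had the largest early difference. In non-regenerative digits its level was 3.52, 10.6 and 12.8 normalized TPM at 0 hours and 3.27, 1.24 and 9.38 at 3 hours. It was 34.7, 27.95 and 25.4 at 6 hours, 84.98, 54.6 and 100.3 at 12 hours and 69.7, 76.7 and 110.4 at 24 hours. From 6 hours to 7 days, every digit lay above every digit at 0 hours. Of all genes, 17.4% did not overlap with 0 hours at 3 days and 6.81% at 7 days. At 14 days it was 21.01, 19.3 and 56.6, where the 19.3 of the dissimilar digit was 5.75 after rescaling, below 2 of the digits at 0 hours on that scale (10.65 and 12.69). The log2 fold change was 1.68 (SE 0.38) at 6 hours, 3.16 (SE 0.40) at 12 hours and 3.27 (SE 0.39) at 24 hours. At 3 days the level was 21.15, 18.05 and 25.1, and at 21 days, 16.0, 7.68 and 30.3, overlapping with 0 hours.

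In intermediate digits, Inhba was 6.27, 6.07 and 3.25 normalized TPM at 0 hours and 44.9, 18.9 and 25.5 at 24 hours. The 14-day digits had 40.8, 23.3 and 23.5, and the 21-day digits 8.71, 6.76 and 10.7. All 3 digits of each later time lay above those at 0 hours. The log2 fold change was 2.50 (SE 0.41) at 24 hours, 2.43 (SE 0.36) at 14 days and 0.72 (SE 0.38) at 21 days. Neutrophil markers were high at 24 hours as well, but not with Inhba in every digit. The 6 markers summed to 16.2 to 23.1 normalized TPM at 0 hours and 1129 to 1276 at 24 hours in non-regenerative digits, and to 136.3 to 1335 at 24 hours in intermediate digits. At 24 hours, 4 of the 6 markers were above 1 normalized TPM in every digit of both level groups. Mpo was at 0 in all digits of these 3 groups, and it was the only one. At 14 days, the intermediate digits with 23.3 and 23.5 normalized TPM of Inhba had neutrophil sums of 44.25 and 21.55, against 13.86 to 36.9 at 0 hours, and the digit with 40.8 had 2164. Their part in the Inhba levels was not tested.

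Fst, the follistatin gene, was high at the same early times and overlapped with its 0-hour levels by 3 days, where Inhba did not. In non-regenerative digits it was 38.55, 17.7 and 24.6 normalized TPM at 0 hours, 185.7, 61.2 and 88.2 at 6 hours, 125.3, 107.6 and 167.9 at 12 hours and 77.4, 84.9 and 105.5 at 24 hours. Digits at these 3 times all lay above those at 0 hours. The log2 fold change was 2.110 (SE 0.43) at 6 hours, 2.38 (SE 0.29) at 12 hours and 1.80 (SE 0.27) at 24 hours. At 3 days the level was 39.03, 31.4 and 35.8, overlapping with 0 hours. In intermediate digits at 24 hours, Fst was 88.9, 34.3 and 42.4, against 29.6, 30.5 and 40.4 at 0 hours, and these groups overlapped. The ratio of Fst to Inhba in normalized TPM was 10.96, 1.67 and 1.93 in non-regenerative digits at 0 hours, between 2.19 and 5.36 at 6 hours and between 0.955 and 1.111 at 24 hours. In intermediate digits, it was 4.72 to 12.4 at 0 hours and 1.66 to 1.98 at 24 hours, so that the ratio at 24 hours was below that at 0 hours in every digit of both groups.

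Inhba lies on chromosome 13 of GRCm38 (16011851 to 16031621, plus strand), as does Fst (114452290 to 114458951, minus strand). Promoter sequences from RefSeq (GRCm38.p6) matched 5 of the 9 genes, namely Tgfb1, Tgfb2, Inhba, Tgfbr1 and Tgfbr2. The 250 bases before the start of Inhba (chr13:16011601-16011850, plus strand) and of Tgfb2 (chr1:186705990-186706239, minus strand) are shown because these genes stood on opposite sides of their 0-hour levels at 12 and 24 hours. Capitals mark matches of CAGAC, the core of SMAD-binding sites, and of TGANTCA, the AP-1 site, searched on both strands.
Inhba: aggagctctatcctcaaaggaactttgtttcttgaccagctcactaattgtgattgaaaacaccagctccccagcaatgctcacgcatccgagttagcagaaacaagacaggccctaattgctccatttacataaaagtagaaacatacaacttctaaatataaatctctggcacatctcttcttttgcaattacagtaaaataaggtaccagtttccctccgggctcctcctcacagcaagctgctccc
Tgfb2: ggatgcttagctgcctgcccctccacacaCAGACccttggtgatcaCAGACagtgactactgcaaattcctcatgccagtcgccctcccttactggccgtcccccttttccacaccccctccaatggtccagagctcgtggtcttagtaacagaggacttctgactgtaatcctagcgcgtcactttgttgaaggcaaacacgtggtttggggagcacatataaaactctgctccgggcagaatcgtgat
The Tgfb2 window held 2 matches of CAGAC, and the Inhba window held neither motif. Of the 32851 promoters of this length in the same table, 42.2% held CAGAC and 6.75% held TGANTCA. A match is a run of letters and was not tested as a binding site.

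Thbs1, whose product thrombospondin-1 can release TGF-beta from its latent complex, was the most abundant of the 9 transcripts per length in digits at 0 hours. In non-regenerative digits it was 138.9, 44.4 and 86.5 normalized TPM at 0 hours, 305.9, 264.9 and 431.8 at 12 hours and 279.0, 93.7 and 374.8 at 24 hours. All digits at 12 hours lay above those at 0 hours (log2 fold change 1.95, SE 0.40), and the digits at 24 hours overlapped with them (1.53, SE 0.54). In intermediate digits, it was 52.8, 72.2 and 92.7 at 0 hours, 172.4, 44.2 and 74.9 at 24 hours and 126.8, 141.3 and 146.2 at 14 days (log2 fold change at 14 days 0.95, SE 0.21).

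The Thbs1 level moved with the date period. In 8 of the 9 groups with digits of both periods, every digit of the earlier period lay above every digit of the later one, and in the ninth they overlapped. At 24 hours, the 2 non-regenerative digits of the earlier period had 279.0 and 374.8 normalized TPM and the digit of the later period 93.7. In a fit of all 41 digits with a mean for each group and time, Thbs1 was lower in the later period by a log2 difference of -1.04 (SE 0.20, edgeR quasi-likelihood test, adjusted p = 0.00053). In that fit 8.23% of 14996 genes were called, and of the 9 genes, Thbs1 was the only one. Tgfb1 had a log2 difference of -0.51 (SE 0.22, adjusted p = 0.16), which was -0.62 (adjusted p = 0.0074) without the dissimilar digit at 14 days. This fit was added after the data had been seen. All non-regenerative digits at 12 hours were of the earlier period, as was the first digit at 0 hours with 138.9 normalized TPM. With the period as a term, in a fit of all digits, the Thbs1 log2 fold change at 12 hours was 1.33. It was 1.93 in that fit without the period, and it was called in neither.

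Of the 9 genes, Tgfbr2 had the narrowest span of group means in both level groups. Tgfbr2, the type II receptor, ran from 14.5 to 32.8 normalized TPM over the 41 digits, and its group means from 18.1 to 26.98. At every time its digits overlapped with those at 0 hours in both level groups. Its log2 fold changes against 0 hours lay between -0.49 (SE 0.24, 3 hours) and 0.29 (SE 0.18, 24 hours) in non-regenerative digits and between 0.24 (SE 0.16, 24 hours) and 0.29 (SE 0.16, 21 days) in intermediate digits. Tgfbr1, the type I receptor, was 18.1, 17.4 and 19.3 at 0 hours and 38.5, 39.5 and 41.0 at 24 hours in non-regenerative digits (log2 fold change 1.18, SE 0.15). In intermediate digits, it was 17.9, 21.7 and 18.4 at 0 hours and 33.3, 32.4 and 44.1 at 14 days (log2 fold change 0.85, SE 0.14). The dissimilar digit at 14 days had the lowest Tgfbr1 level, 11.2, where the other 2 non-regenerative digits had 43.7 and 41.2. Without it, the mean at 14 days was 42.4 in place of 32.0.

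Pmepa1 encodes a membrane protein that is a known TGF-beta target and holds back SMAD signalling. In non-regenerative digits it was 33.8, 22.9 and 27.4 normalized TPM at 0 hours, 81.8, 62.6 and 76.8 at 24 hours and 47.97, 48.15, 54.6, 44.55 and 60.6 at 7 days. Digits of these later times lay above all digits at 0 hours, where 39% of all genes did not overlap at 24 hours and 6.81% at 7 days. At 14 days it was 49.7, 181.4 and 76.7, but on the rescaled values 59.43, 53.95 and 81.66, so that the dissimilar digit was the highest of the 3 on the first scale and the lowest on the second. The log2 fold change was 1.27 (SE 0.16) at 24 hours. In intermediate digits, it was 18.6, 20.9 and 24.6 at 0 hours and 61.0, 26.8 and 38.1 at 24 hours. The 14-day digits had 44.2, 53.2 and 49.98, and the 21-day digits 51.2, 23.95 and 31.9. The digits at 24 hours and 14 days lay above those at 0 hours, and the log2 fold change at 14 days was 1.27 (SE 0.17).

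Across the 41 digits, Pmepa1 was higher in digits with a higher labelled amputation percent. With the time point in the fit, its log2 level was higher by 0.27 (SE 0.06) per 10 percentage points, and among 14996 genes, it had rank 3 by p. It was chosen for this relation, so its slope, its rank and whether it passed a test of it are a description. No gene was called in that fit (0%, edgeR quasi-likelihood test). At an unadjusted p under 0.05 it had 1244 genes, 2 of them among the 9 (Inhba and Pmepa1), and DESeq2 called 10 genes, Pmepa1 among them. Between level groups, the means differed in 1 direction at all 4 shared times. The log2 difference of intermediate from non-regenerative digits was -0.53 (SE 0.18) at 0 hours, -0.74 (SE 0.23) at 24 hours, -0.93 (SE 0.54) at 14 days and -0.72 (SE 0.23) at 21 days. Even so, the normalized TPM of the groups overlapped at 0 hours, 14 days and 21 days, and at 24 hours the intermediate digits had 26.8 to 61.0 and the non-regenerative digits 62.6 to 81.8. At 24 hours, 2 non-regenerative digits and 1 intermediate digit were of the earlier date period, and 1 and 2 of the later. At 21 days, all intermediate digits were of the earlier and all non-regenerative digits of the later period. Level group and period cannot be told apart there.

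Within level groups, the relation of Pmepa1 with the labelled percent was smaller or had the opposite sign. Pearson's r of log2(normalized TPM + 1) with the percent was 0.392 over 41 digits (Spearman's rho 0.387), 0.259 over 29 non-regenerative digits (rho 0.225) and -0.483 over 12 intermediate digits (rho -0.409). Leaving out the 2 digits farthest from the median percent, r was 0.493, 0.199 and -0.133. With time-point means removed, r was 0.515 over all digits, 0.215 in non-regenerative and -0.289 in intermediate digits. With the level group as a further term, the slope was 0.13 (SE 0.11), and in non-regenerative digits alone, 0.21 (SE 0.15). It was 0.09 (SE 0.09) in the 24 digits of the earlier period and 0.32 (SE 0.12) in the 17 of the later period. Without the 2 dissimilar digits it was 0.23 (SE 0.05). Each of the other 8 genes was tested in the same fit, and none passed. The largest slope was that of Inhba, at 0.31 (SE 0.10, adjusted p = 0.48), followed by Tgfb1 at 0.15 (SE 0.10, adjusted p = 0.69). Pmepa1 also differed by date period. In 7 of the 9 groups with digits of both periods, all digits of the earlier period had more Pmepa1 than all of the later one. In the other 2, which held the dissimilar digits, all digits of the later period had more. The part of the period in the Pmepa1 levels was not tested beyond the fits given.

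**Figure D3:**
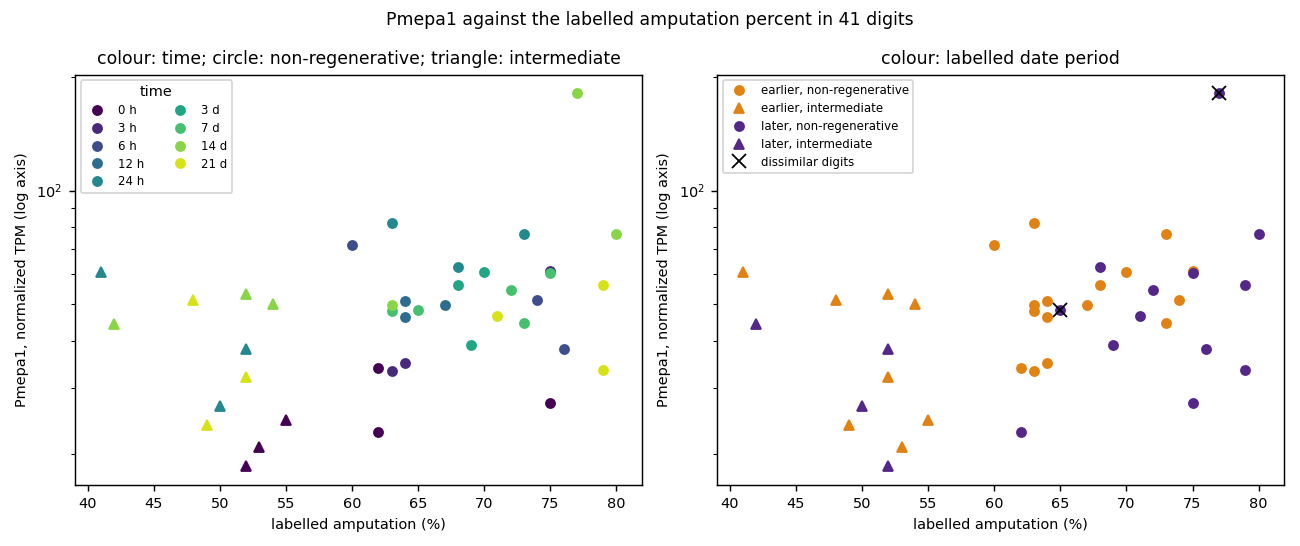
Pmepa1 in normalized TPM (log axis) against the labelled amputation percent in 41 digits, circles for non-regenerative and triangles for intermediate digits, coloured by time (left) and by date period (right). The intermediate digits (41 to 55%) include the lowest value, 18.6, but also 61.0 at 41%, and the highest point is the dissimilar digit at 77% with 181.4, which is 53.95 with every library rescaled to the same sum.

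Against 0 hours, in edgeR quasi-likelihood tests with a Benjamini-Hochberg adjusted p under 0.05 and a fold above 2, none of the 9 genes was called in non-regenerative digits after 3 hours (0% of all genes tested). There were 3 calls after 6 hours (4.85% of all genes), 5 after 12 hours (11.4%) and 6 after 24 hours (10.7%). None was called after 3 days (0.723%), 7 days (0.0537%) and 14 days (0%), and 1 after 21 days (0.452%). Of the 15 calls, 10 were higher (Inhba and Fst at 6, 12 and 24 hours, Thbs1 at 12 hours, Tgfbr1 and Pmepa1 at 24 hours and Tgfb3 at 21 days) and 5 lower (Tgfb3 at 6, 12 and 24 hours, Tgfb2 at 12 and 24 hours). In intermediate digits, calls were 0 after 24 hours, 4 after 14 days (Tgfb1, Tgfb3, Inhba and Pmepa1) and 2 after 21 days (Tgfb2 and Tgfb3), all higher, against 0.0152%, 1.68% and 1.39% of all genes. The genes were selected on these contrasts, so the counts carry no weight beyond description. For the times with a count of 0 over all genes, an unadjusted p under 0.05 was found for 1362 genes at 3 hours and 1044 at 14 days, none and 3 of them among the 9, and DESeq2 called 196 and 354 genes, with 0 and 1 of the 9. All comparisons within a level group share its 0-hour digits, and the counts rest on these. Leaving out non-regenerative replicate 3 at 0 hours left 6 of the 15 calls and leaving out replicate 2 left 9. The 6 intermediate calls went to 2 without replicate 1 and to 0 without replicate 2 at 0 hours, and to 2 without replicate 2 at 14 days. With the 2 dissimilar digits left out and the other 39 digits in 1 fit, 23 of the 72 pairs of gene and time were called. The share of all genes called in that fit was not computed, so the 23 cannot be set against it.

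Over all time points of a level group, the F test called 6 of the 9 genes in non-regenerative digits (Tgfb1, Tgfb3, Inhba, Fst, Thbs1 and Pmepa1), against 7.62% of all genes. In intermediate digits, it called 5 (Tgfb2, Tgfb3, Inhba, Tgfbr1 and Pmepa1), against 6.21%. With the 17 non-regenerative digits labelled above 67% alone, 2 of the 9 were called, and the share over all genes was not computed. Ordered by mean level over the 13 groups of digits, neighbours overlapped in nearly all cases. The exceptions were Tgfb3, with non-regenerative digits at 7 days above intermediate digits at 0 hours and intermediate above non-regenerative digits at 24 hours, Tgfb2, with non-regenerative digits at 21 days above those at 0 hours, and Inhba, with intermediate digits at 21 days above those at 0 hours.

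Over the 41 digits, the pair of the 9 genes with the highest Spearman's rho was Tgfb2 and Tgfb3 (0.77, and 0.878 without the dissimilar digits). Tgfb1 and Thbs1 followed at 0.69, Inhba and Pmepa1 at 0.658 and Inhba and Fst at 0.656. The lowest were Tgfb2 with Inhba (-0.479) and Tgfb3 with Fst (-0.434). Digits share time points and library depth, so these values describe the set and carry no p. Among 13108 genes with a mean of at least 1 normalized TPM, those most alike over the 41 digits were Antxr1, Col1a1 and Dkk3 for Tgfb3 (rho 0.946, 0.941 and 0.939), Itm2a, Fndc1 and Angptl2 for Tgfb2 (0.881, 0.871 and 0.869) and Tyrobp, Lpin2 and Ftl1 for Tgfb1 (0.825, 0.82 and 0.8). For Inhba they were Msn, Serp1 and Clec4d (0.884, 0.872 and 0.869), for Fst, Cxadr, Mmp10 and Cdk6 (0.859, 0.82 and 0.786), and for Thbs1, Pdzd8, Runx1 and Lims1 (0.801, 0.791 and 0.79). For Pmepa1 they were Fscn1 and B4galt1 (0.765 and 0.759), for Tgfbr1, Tram1, Xpr1 and Qk (0.808, 0.8 and 0.797), and for Tgfbr2, Ptprm, Ilk and Sulf2 (0.721, 0.676 and 0.673).

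A list of 36 other genes of the pathway (further ligands, latency and activation, receptors, inhibitors, SMADs and target genes) gives the surroundings of the 9. The list was drawn up with earlier results of these data known. Of those tested in non-regenerative digits, 7 of 35 were called at 6 hours (20%, against 4.85% of all genes), 9 of 34 at 12 hours (26.5%, against 11.4%) and 10 of 33 at 24 hours (30.3%, against 10.7%). At 3 days, it was 2 of 35 (5.71%, against 0.723%), and at the other times none. The median log2 fold change of the list was 0.39 at 12 hours and 0.60 at 24 hours, against -0.03 and -0.04 over all genes. The signal transducer Smad3 rose at 6, 12 and 24 hours, with a log2 fold change of 1.87 (SE 0.33, adjusted p = 0.021) at 6 hours. The integrin subunit gene Itgb6 and the co-repressor gene Tgif1 rose at the same 3 times. Ltbp1 and Tgfbi rose at 12 and 24 hours, Klf10 at 6 and 12 hours and Smurf1 at 24 hours. Ltbp1 was also called lower in the later date period. All non-regenerative digits at 12 hours were of the earlier period, and most of the digits they were compared with were of the later one. The rise of Ltbp1 was not tested with the period as a term. Ltbp4, which encodes a latent TGF-beta binding protein, fell at 6, 12 and 24 hours and 3 days, with a log2 fold change of -1.30 (SE 0.19, adjusted p = 0.021) at 3 days, and Gdf11, named after its value had been seen, fell at 24 hours (-2.43, SE 0.63, adjusted p = 0.033). Tgfbi also rose at 3 days (1.76, SE 0.27, adjusted p = 0.027).

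In intermediate digits, Ltbp2 and Tgfbi rose at 14 days (log2 fold change 2.23, SE 0.44, adjusted p = 0.046, and 1.115, SE 0.19, adjusted p = 0.024), and Ltbp2 at 21 days (2.08, SE 0.34, adjusted p = 0.017). These are 2 of 35 at 14 days (5.71%, against 1.68% of all genes) and 1 of 35 at 21 days (2.86%, against 1.39%), and none of 35 was called at 24 hours. The F test over time called 7 of 35 list genes (20%, against 7.62%) in non-regenerative digits, Ltbp2, Smad3, Ltbp3, Tgif1 and Tgfbi among them, and 4 of 35 (11.4%, against 6.21%) in intermediate digits, namely Gdf11, Tgfbi, Ltbp2 and Smad4. In the fit with the date period, 7 of 35 were called (20%, against 8.23% of all genes), all lower in the later period, Ltbp1 among them. The integrin subunit gene Itgav had a log2 difference of -0.52 (SE 0.12, adjusted p = 0.0041) in that fit.

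**Figure D4:**
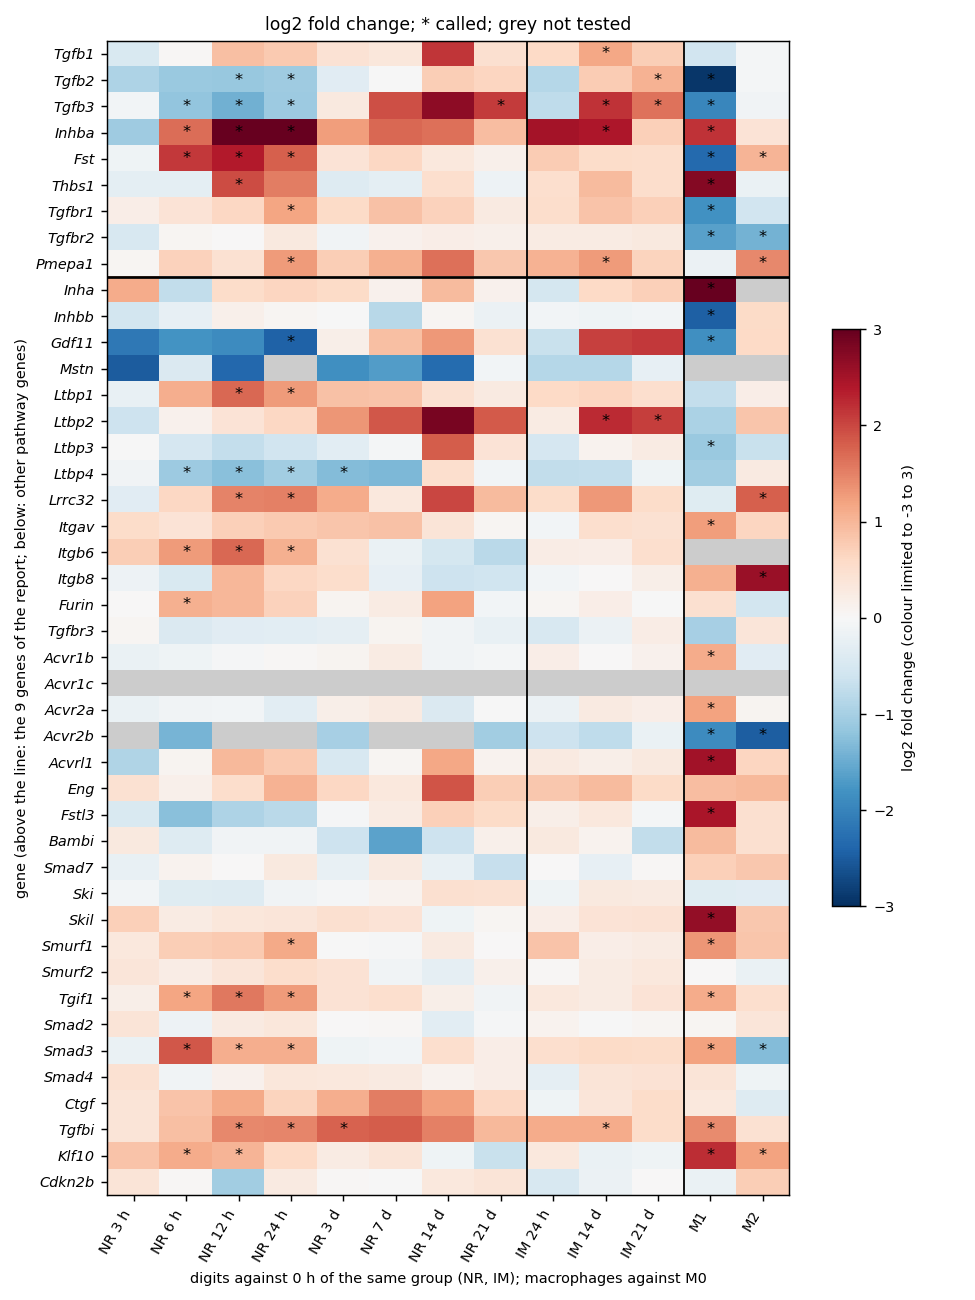
Log2 fold change (colour, limited to -3 to 3) of the 9 genes (above the line) and of other pathway genes (below) in non-regenerative (NR) and intermediate (IM) digits against 0 hours of the same group and in M1 and M2 macrophages against M0, with an asterisk for a call and grey where not tested. Inhba and Fst are high at 6 to 24 hours in non-regenerative digits, where Tgfb2, Tgfb3 and Ltbp4 are low.

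Intermediate and non-regenerative digits were compared at the 4 times they share. None of the 9 genes was called at any of them (0 of 36 pairs), where 0% of all genes were called at 0 hours, 0% at 24 hours, 0% at 14 days and 0.648% at 21 days in edgeR quasi-likelihood tests. At an unadjusted p under 0.05, 9 of the 36 pairs were found, and DESeq2 called 1. Among the 9 pairs were those of Pmepa1 at 0 hours, 24 hours and 21 days. Pmepa1 was chosen by its relation with the amputation percent, so its pairs are a description. Over all genes, an unadjusted p under 0.05 was found for 491 of 13500 at 0 hours and 1472 of 13024 at 24 hours. It was found for 270 of 13421 at 14 days and 1927 of 13736 at 21 days. DESeq2 called 17 genes at 0 hours, 155 at 24 hours and 0 at 14 days. The smallest unadjusted p was that of Inhba at 24 hours, with 18.9 to 44.9 normalized TPM in intermediate and 69.7 to 110.4 in non-regenerative digits, which do not overlap (log2 difference -1.59, SE 0.34, adjusted p = 0.27). It is the gene that DESeq2 called. Without intermediate replicate 1 at 24 hours, labelled 41%, 2 of the 9 genes were called, Inhba (-2.01) and Fst (-1.25). The share of all genes called without that digit was not computed. Tgfb3 lay higher in intermediate digits at 24 hours, with no overlap, by 0.77 (SE 0.23, adjusted p = 0.36). Over all genes, the level groups did not overlap for 17.6% at 24 hours and 20.9% at 21 days. At 21 days, Tgfbr1 and Fst lay higher in intermediate digits by 0.47 (SE 0.14, adjusted p = 0.18) and 0.63 (SE 0.22, adjusted p = 0.25). All intermediate digits at 21 days were of the earlier date period and all non-regenerative digits of the later one. Level group and date period therefore cannot be told apart at that time.

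The change from 0 hours was also compared between level groups in 1 fit of the 41 digits. None of 27 pairs of gene and time was called, and none had an unadjusted p under 0.05. Over all genes 0% were called at 24 hours, 0% at 14 days and 0% at 21 days by edgeR, with 227, 1050 and 120 genes at an unadjusted p under 0.05, and DESeq2 called 7, 2 and 5 genes, none of them among the 9. The largest differences were those of Thbs1 and Fst at 24 hours, of -1.04 (SE 0.77) and -1.03 (SE 0.61) on the log2 scale. With 3 digits in each group and time, standard errors of 0.42 to 0.77 over the 27 pairs leave room for differences of more than 2-fold.

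In cultured macrophages, the 9 genes were measured apart from the digits that selected them. Thbs1 and Inhba were higher in M1 (IFN-gamma and LPS) than in M0, whereas both receptor genes, Tgfb2, Tgfb3 and Fst were lower. In M2 (IL-4), Pmepa1 and Fst were higher and Tgfbr2 was lower than in M0. In M1 against M0, 7 of the 9 were called, against 46.1% of all genes tested. In M2 against M0, 3 of 9 were called, against 22.3%, and in M1 against M2, 7 of 9, against 48%. M1 and M2 were compared with the same M0 samples.

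Thbs1 was 440.2, 479.7 and 402.3 normalized TPM in M0 and 2861, 2799 and 3201 in M1 (log2 fold change 2.75, SE 0.08, adjusted p = 8.3e-12). In M2 it was 409.8, 362.1 and 426.8, overlapping with M0. Inhba was 14.1, 14.9 and 14.2 in M0, 59.0, 67.2 and 63.9 in M1 (2.16, SE 0.07, adjusted p = 3.2e-11) and 21.96, 19.3 and 17.6 in M2. The rise of Inhba in M2 stayed under the 2-fold limit (0.41, SE 0.08, adjusted p = 0.0011). Fst was scarce, at 2.26, 2.44 and 2.14 in M0, 0.540, 0.230 and 0.479 in M1 (-2.34, SE 0.27, adjusted p = 4.7e-06) and 3.49, 5.13 and 5.95 in M2 (1.03, SE 0.19, adjusted p = 0.00054). The M2 call of Fst rests on its fold limit, since its log2 fold change was 0.986 without M0 replicate 3, 0.984 without M2 replicate 2 and 0.864 without M2 replicate 3. Inhba and Fst therefore moved in opposite directions in M1.

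Tgfb1 was by far the most abundant ligand gene in macrophages and held 92.8 to 98.3% of the summed normalized TPM of the 3. It was 301.8, 296.2 and 304.4 in M0 and 197.9, 204.1 and 202.2 in M1, a difference under the 2-fold limit (log2 fold change -0.57, SE 0.04, adjusted p = 5.4e-08). In M2 it was 327.9, 296.5 and 276.6. The normalized TPM summed to 1331226 to 1355441 in M1 samples, against 786283 to 820932 in M0. With every sample rescaled to the same sum, the Tgfb1 mean was 373.0 in M0 and 149.7 in M1, more than 2-fold apart. Inhba had 17.86 and 47.09 on that scale, so the size of the M1 changes depends on the scaling. Tgfb2 was 5.62, 8.15 and 7.18 in M0 and 0.729, 1.19 and 1.06 in M1 (-2.91, SE 0.19, adjusted p = 1.5e-08), and Tgfb3 was 9.29, 14.9 and 11.1 in M0 and 2.67, 3.35 and 3.05 in M1 (-1.96, SE 0.19, adjusted p = 7e-07). In M2, both overlapped with M0. Markers of stromal cells differed between the states as well. The 5 fibroblast markers summed to 290.6 to 459.4 normalized TPM in M0, 226.9 to 260.3 in M1 and 535.3 to 602.5 in M2. Those of smooth muscle and pericytes summed to 323.1 to 470.6 in M0, 18.98 to 22.21 in M1, where Rgs5 was at 0, and 331.2 to 383.9 in M2. Their part in the ligand, Fst and Pmepa1 levels was not tested.

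Tgfbr2 was 135.3, 139.6 and 140.1 normalized TPM in M0, 48.2, 43.2 and 43.9 in M1 (log2 fold change -1.62, SE 0.05, adjusted p = 1.6e-11) and 54.8, 51.0 and 54.3 in M2 (-1.42, SE 0.05, adjusted p = 6.7e-10). Tgfbr1 was 58.9, 53.8 and 54.5 in M0, 16.1, 14.9 and 16.5 in M1 (-1.81, SE 0.05, adjusted p = 4.7e-12) and 37.9, 37.6 and 40.2 in M2 (-0.58, SE 0.05, adjusted p = 1.7e-06, under the 2-fold limit). Pmepa1 was 3.34, 7.01 and 5.15 in M0 and 6.10, 4.84 and 4.90 in M1, with overlap, and 15.91, 12 and 13.01 in M2 (1.43, SE 0.13, adjusted p = 1.9e-06). Directly against M2, M1 had more Inhba (1.65, SE 0.08, adjusted p = 4.5e-11) and Thbs1 (2.87, SE 0.08, adjusted p = 3.8e-13) and less Pmepa1 (-1.70, SE 0.08, adjusted p = 8.5e-11), Tgfbr1, Tgfb2, Tgfb3 and Fst.

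Of the other pathway genes, 17 of 33 (51.5%) were called in M1 against M0 (13 higher and 4 lower), against 46.1% of all genes. In M2 against M0 it was 5 of 32 (15.6%, 3 higher and 2 lower), against 22.3%. The SMAD co-repressor gene Skil rose by 2.64 (SE 0.05, adjusted p = 1.1e-13) and Klf10, an early TGF-beta target, by 2.21 (SE 0.05, adjusted p = 5e-13) on the log2 scale. The type I receptor gene Acvrl1 rose by 2.53 (SE 0.09, adjusted p = 6.4e-11). In M2, Smad3 fell (-1.30, SE 0.07, adjusted p = 1.8e-08). Lrrc32, which encodes a protein that tethers latent TGF-beta to cells, rose (1.79, SE 0.10, adjusted p = 3e-08), as did Itgb8 and Klf10, and the activin receptor gene Acvr2b fell (-2.48, SE 0.19, adjusted p = 4e-07). In M1 against M2, 17 of 33 (51.5%) were called, 8 higher and 9 lower, against 48% of all genes.

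**Figure D5:**
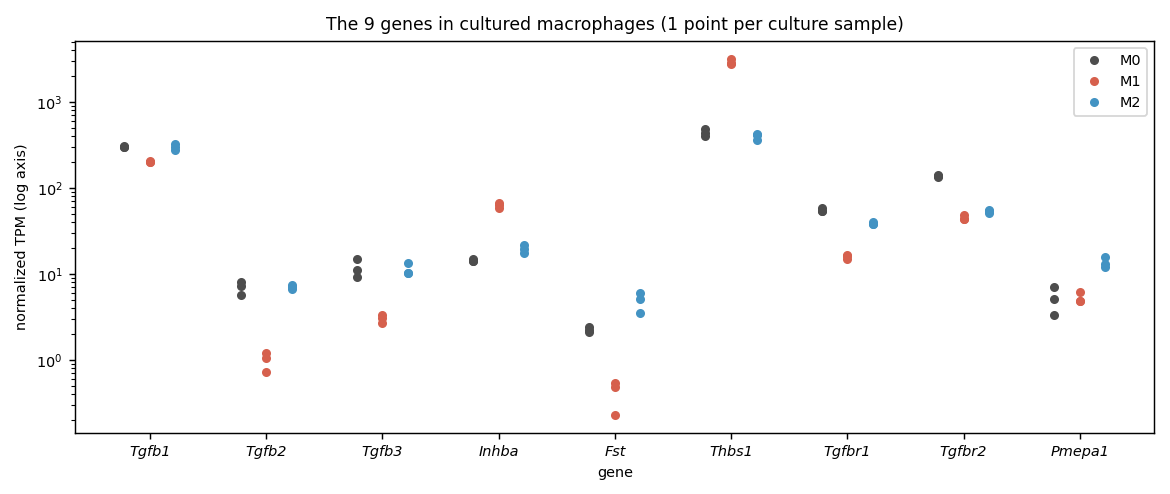
Normalized TPM (log axis) of the 9 genes in M0 (grey), M1 (red) and M2 (blue) macrophages, 1 point per sample and 3 samples per state. M1 samples lie above the others for Thbs1 and Inhba and below them for Tgfb1, Tgfb2, Tgfb3, Fst, Tgfbr1 and Tgfbr2, and M2 samples lie above the others for Pmepa1.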

How the data were processed

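RNA-seq data of 41 mouse digits and 9 macrophage samples were processed. The authors mapped single-end reads of 65 bases to Ensembl 75 genes with Bowtie and, per the labels, RSEM 1.2.3 gave the expected counts, deposited as such. The other deposited table of each experiment holds a signal, TPM that the authors scaled by median-by-ratio normalization (normalized TPM). Groups, times, amputation percents and dates came from the sample titles. In the digit tables, 26 gene names had become dates and were restored.

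Expected counts were rounded, filtered with filterByExpr, scaled by TMM and tested with edgeR 4.0.16 (quasi-likelihood, R 4.3.3), each pair of groups on its own samples. Calls needed a Benjamini-Hochberg adjusted p under 0.05 and a more than 2-fold difference of mean normalized count plus 1. F tests, the period, the amputation percent and differences of changes used the adjusted p alone. The study used EBSeq, which is not installed here. SE is the log2 fold change divided by the root of its F. Replicates differed by more than counting error, with a chi-square per degree of freedom of 3.05 to 411 over 55 pairs. Scripts were tested on simulated counts.

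The 9 genes, the 36 pathway genes and the marker lists were chosen with earlier results of these data known. Named genes are the 9, pathway genes that were called (up to 6 with the smallest adjusted p in full) and the 3 genes most alike to each of the 9, leaving out placeholder names. One gene of the pathway list is counted but not reported here by name. Alternatives were DESeq2 1.42.0, its size factors, no filter, no fold limit, other samples or terms and leaving out each sample in turn. GENCODE M21 (GRCm38) gave coordinates and transcripts.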

Additional observations from a re-analysis of the deposited data

Results flagged for a closer look

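Among the 5 non-regenerative digits at 7 days, 1 of the 9 genes had a digit far from the others. The Tgfb2 level of the dissimilar digit, 1.55 normalized TPM, left a gap to the next digit of 0.743 of the group's range, above Dixon's limit of 0.71 for 5 samples, and chance alone flags about 1 in 20 such groups. No other group held between 4 and 10 samples. No gene of the 9 passed the test of a different change between level groups.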

How the results depend on the processing

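The counts of the 9 genes and the Pmepa1 slope were recomputed under the alternatives, those of the 36 pathway genes were not, and no call of the 9 genes changed sign. Shares called over all genes were not recomputed either, apart from the DESeq2 counts given above. Against 0 hours in non-regenerative digits, the 15 calls became 13 with all 41 digits in 1 fit (8 of them shared), 20 with DESeq2 and 23 with 39 digits in 1 fit without the 2 dissimilar digits (chosen after seeing the data), and 6 to 17 with 1 sample left out. In intermediate digits, the 6 calls became 0 to 7 with 1 sample left out, 4 with all digits and the date period in 1 fit and 8 with DESeq2. Over time, the 6 calls in non-regenerative digits became 2 with only the digits labelled above 67% (1 of them shared) and 5 to 7 with 1 digit left out, and the 5 in intermediate digits 4 to 7. Fewer digits enter the fit above 67%, and the cause of the other shifts was not tested. Between level groups, the count of 0 became 1 with DESeq2 and 0 to 2 with 1 sample left out. Against the amputation percent it became 1 with DESeq2 (Pmepa1, which was chosen by this relation) and 0 with each digit left out. For the difference of changes it was 0 under each alternative. The Pmepa1 slope of 0.27 was 0.23 to 0.31 with 1 digit left out, 0.127 with the level group as a term and 0.0887 in the earlier period alone. In macrophages, M2 against M0 gave 6 calls without the fold limit, in place of 3, and 2 to 3 with 1 sample left out, and M1 against M0 and M1 against M2 gave 7 with each sample left out. For the later against the earlier period, the 1 call became 2 without the dissimilar digits and 1 to 2 with 1 digit left out. Pairs of gene and time with more than a 2-fold change of the mean log2 level numbered 28 of 99, and 30 with a pseudocount of 0.1 in place of 1. The numbers in the macrophage labels did not pair the samples: the correlation of deviations was -0.07 to 0.07 over 9 pairs with the same number and -0.06 to 0.11 over 18 with different numbers. With the number as a replicate block, the counts stayed at 7, 3 and 7. Depth limits Fst in M1, where the mean normalized count was 10.9, and the digits at 3 hours, with the fewest counts.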
